A study of Homo sapiens with 2 samples.

Results

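The ubiquitin-conjugating enzymes, or E2s, were described as a gene family in C4-2B MDVR cells, an enzalutamide-resistant line of castration-resistant prostate cancer. Members were every gene symbol formed of UBE2, 1 capital letter and at most 1 digit, together with UBE2QL1 and CDC34. This rule took 35 of the 25268 symbols in the tables, and 33 of them had a mean of at least 1 FPKM over the libraries. The Indocin group was 1 library of cells given 20 µM Indocin (indomethacin, a cyclooxygenase inhibitor) for 3 days, and the DMSO group was 1 library of cells given only the vehicle for the same time. Both cultures were C4-2B MDVR cells kept in medium with 10% serum and 20 µM enzalutamide, so both groups carried the antiandrogen and neither shows the parental line. FPKM is the number of fragments of a gene scaled to its length and to the size of the library, so levels can be set side by side between genes. With 1 library per group no difference below has a replicate check, a test or an error, and the values describe these 2 libraries.

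Ubiquitin is activated by an E1 enzyme, passed to the active-site cysteine of an E2 and placed on a substrate with the help of an E3 ligase. The E2 often decides which kind of chain is built: some start chains, some extend them, and some carry ubiquitin-like proteins such as NEDD8 or ISG15 in place of ubiquitin. In dividing cells UBE2C and UBE2S serve the anaphase-promoting complex (APC/C), CDC34 serves the SCF ligases that degrade cell cycle inhibitors, and UBE2T serves the Fanconi pathway of DNA crosslink repair. These 4 genes were taken as the cell-cycle E2s, and the other 29 measured members were set against them.

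Promoter windows are shown for UBE2T and UBE2S, which were lower in the Indocin library, and for UBE2E2, which had the highest ratio in the family. They run from 250 bases before to 50 bases after the annotated gene start, are RefSeq sequences on GRCh38.p14 and were matched by symbol, since the libraries were processed on GRCh37. Capitals mark TTTGAA or TTCGAA, the cell cycle homology region (CHR) motif, and CCAAT, on either strand. UBE2T lies at chr1:202341887-202342186 on the minus strand, UBE2S at chr19:55407739-55408038 on the minus strand, and UBE2E2, the first listed of 3 windows, at chr3:23202848-23203147 on the plus strand.
UBE2T: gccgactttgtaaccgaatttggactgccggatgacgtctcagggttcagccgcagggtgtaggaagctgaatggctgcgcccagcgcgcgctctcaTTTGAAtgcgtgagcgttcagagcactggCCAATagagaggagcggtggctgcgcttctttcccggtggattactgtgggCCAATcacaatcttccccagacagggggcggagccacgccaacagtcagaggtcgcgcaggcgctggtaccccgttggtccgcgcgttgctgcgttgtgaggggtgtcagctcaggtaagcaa
UBE2S: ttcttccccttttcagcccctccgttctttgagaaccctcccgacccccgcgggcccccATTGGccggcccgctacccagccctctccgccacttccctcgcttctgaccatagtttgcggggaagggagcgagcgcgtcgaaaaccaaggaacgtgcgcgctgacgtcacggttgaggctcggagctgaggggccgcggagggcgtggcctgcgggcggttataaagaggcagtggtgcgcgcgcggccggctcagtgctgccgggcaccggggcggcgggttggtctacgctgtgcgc
UBE2E2: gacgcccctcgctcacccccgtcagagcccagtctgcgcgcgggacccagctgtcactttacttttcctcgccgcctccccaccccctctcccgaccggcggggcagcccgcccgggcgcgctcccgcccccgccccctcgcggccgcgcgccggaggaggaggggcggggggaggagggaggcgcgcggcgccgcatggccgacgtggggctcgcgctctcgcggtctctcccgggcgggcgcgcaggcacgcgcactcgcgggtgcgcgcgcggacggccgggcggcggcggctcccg

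The UBE2T window held 1 CHR match, which begins 153 bases before the start, and CCAAT beginning 124 and 73 bases before it. The UBE2S window held 1 CCAAT match on the opposite strand, 191 bases before the start, and no CHR match. The UBE2E2 window held none. A window was listed for 28 of the 35 members, UBE2C not among them, so the counts below cover 3 of the 4 cell-cycle E2s. A CHR match was found in 3 of these 28 (10.7%, UBE2T, UBE2F and UBE2U), against 19.5% of 27305 genes with a window, and CCAAT in 9 (32.1%), against 39.7%. The E2F motif, TTTGGCGC or TTTCCCGC, was found in none of the 28, against 2.75% of genes, and the ATF4 motif TGATGNAA in none, against 4.46%. The ER stress element, CCAAT and CCACG with 9 bases between them on either strand, was also found in none, against 0.0916% of genes. ER stress element matches contain a CCAAT match by construction. Median GC content was 72.5% over the members with a window and 58.3% over all genes. These matches describe letters in a window and do not show binding.

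The number of fragments per library is unknown. The steps between low FPKM values of 1332 genes with a mean under 0.05 FPKM gave a factor of 1.01 between the libraries, matched within 0.3% by 17.3% of these genes against a median of 2.10% over other factors. Depth and the authors' scaling cannot be told apart in this factor. Summed FPKM over all symbols was 583096 in the Indocin library and 617510 in the DMSO library, and the median of the 11966 tested genes was 12.3 and 12.5 FPKM, in that order of libraries. BCYRN1 alone had a mean of 35438 FPKM over the libraries and was lower in the Indocin library. All 10 luminal prostate markers were measured, from 58.1 to 362 FPKM in the Indocin library and from 61.4 to 520.3 FPKM in the DMSO library. Fibroblast markers summed to 26.9 FPKM in the Indocin library and 35.4 FPKM in the DMSO library, mostly VIM, with COL1A2, COL3A1 and DCN at 0 in both. Leukocyte markers summed to 6.38 FPKM in the Indocin library and 7.28 FPKM in the DMSO library, mostly CD68, with CD3E at 0 in both. Neuroendocrine markers summed to 32.5 and 33.9 FPKM in the Indocin and DMSO libraries, mostly ENO2, with INSM1 at 0 in both.

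Most members of the E2 family differed little between the libraries, as did most tested genes. No member was 1.5-fold apart in either direction, where 0.744% of tested genes passed that fold on the lower side and 2.19% on the higher side of the Indocin library. Folds are from the log2 ratio, log2((Indocin FPKM + 1)/(DMSO FPKM + 1)), and a negative ratio means a lower value in the Indocin library. At 1.2-fold 4 members were lower, UBE2T, UBE2C, UBE2N and UBE2W, which is 12.1% of 33 against a background of 11.7%. Only UBE2E2 was as much higher, or 3.03% against 9.9%. Ratios lay below 0 for 23 members and above 0 for 10, so 69.7% were below 0 against 55.2% of tested genes, and the family median was -0.06 against -0.02. Within 1.1-fold were 19 members, or 57.6% against 51.2% of tested genes.

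The direction of the family as a whole depended on how the libraries were scaled. With both at the same upper quartile, 1 member (UBE2T) was at least 1.2-fold lower, against 7.01% of tested genes, and 3 were as much higher, against 14.9%. Under the same scaling 15 of 33 ratios lay below 0 against 41.2% of tested genes, and the family median was 0.01. Summed over all 35 members, FPKM was 1605 in the Indocin library and 1763 in the DMSO library, a difference of -8.96%, while the sum over all symbols differed by -5.57%. BCYRN1, at a mean of 35438 FPKM and a log2 ratio of -0.71, weighs heavily in the sum over all symbols, and no sum without it was computed. UBE2S, UBE2T and UBE2C together made up 24.6% of the family sum in the Indocin library and 27.5% in the DMSO library.

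**Figure D1:**
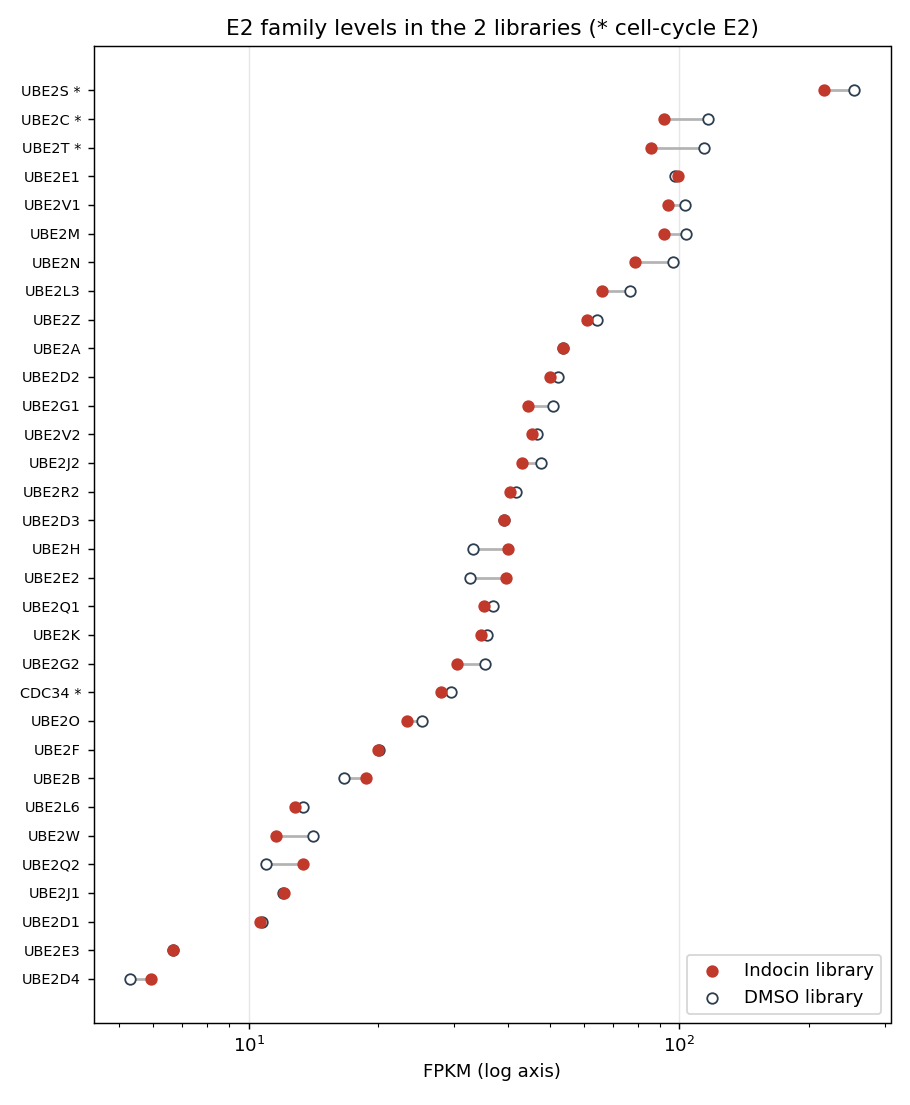
FPKM of 32 of the 33 measured E2 genes on a log axis, with a filled point for the Indocin library and an open point for the DMSO library, in the order of mean level. UBE2S stands apart at 216 FPKM in the Indocin library and 255 FPKM in the DMSO library, and for most members the points nearly touch.

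Of the cell-cycle E2s, UBE2T, UBE2C and UBE2S were lower in the Indocin library, and CDC34 lay near 0. All 4 ratios were below 0 as reported, against 55.2% of tested genes, and CDC34 turned above 0 with both libraries at the same sum. Above 39.2 FPKM, where UBE2T, UBE2C and UBE2S lie, 71.3% of tested genes were below 0. The median of the 4 was -0.28, against -0.05 for the other 29 members, of which 19 were below 0 and 10 above. The gap between these medians was -0.24 on the log2 scale. Scaling or centring the libraries moves both medians nearly alike and so does not bear on it. The gap was -0.21 with ratios centred by decile of mean FPKM, -0.28 without CDC34 in the cell-cycle list, and -0.13 with UBE2R2, UBE2D1 and UBE2G1 added to that list. Among the 5 lowest ratios of the family 3 were of cell-cycle E2s. In bulk RNA a smaller share of dividing cells and less RNA per dividing cell cannot be told apart.

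UBE2T, which with the ligase subunit FANCL places single ubiquitins on FANCD2 and FANCI, had the lowest ratio of the family. It stood at 86.1 FPKM in the Indocin library and 114 FPKM in the DMSO library (log2 ratio -0.40), and 3.87% of tested genes had a lower ratio. It was the member of level rank 6 in the Indocin library and rank 3 in the DMSO library. UBE2C, which starts chains on APC/C substrates, stood at 92.3 FPKM in the Indocin library and 117 FPKM in the DMSO library (-0.33), with 6.72% of tested genes lower. UBE2S, which extends those chains through Lys11 of ubiquitin, was the most abundant E2 message in both libraries, at 216 FPKM in the Indocin library and 255 FPKM in the DMSO library (-0.24). For UBE2S 13.9% of tested genes had a lower ratio. Both APC/C enzymes were thus lower, UBE2C somewhat more than UBE2S, and UBE2C per UBE2S was 0.427 in the Indocin library and 0.457 in the DMSO library.

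CDC34, which builds Lys48-linked chains with SCF ligases, lay closer to 0 than the other cell-cycle E2s. Its level was 27.9 FPKM in the Indocin library and 29.4 FPKM in the DMSO library (-0.07), and 11 of the 29 other members had lower ratios. Its ratio was -0.0024 with both libraries at the same upper quartile and 0.0050 at the same sum. Its close relative UBE2R2 was at 40.5 FPKM in the Indocin library and 41.7 FPKM in the DMSO library (-0.04). UBE2G1, which extends chains with CUL4 ligases, was at 44.5 FPKM in the Indocin library and 50.8 FPKM in the DMSO library (-0.19).

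**Figure D2:**
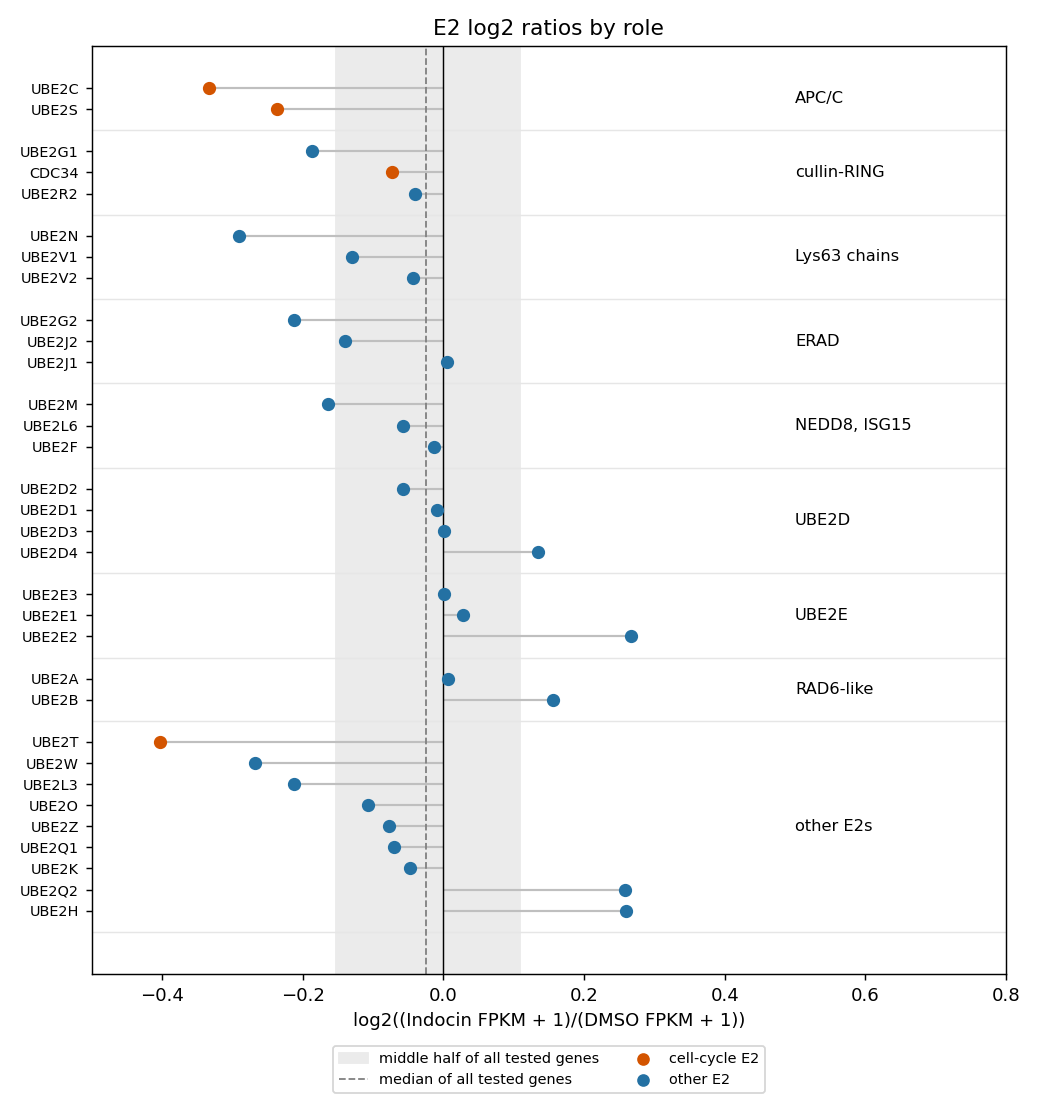
Log2 ratio of FPKM + 1, Indocin over DMSO, for 32 of the 33 measured E2 genes grouped by role, with cell-cycle E2s in orange. The grey band spans the quartiles of all tested genes, -0.15 and 0.11, and the dashed line their median of -0.02; UBE2T, UBE2C and UBE2S lie left of the band and CDC34 inside it.

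Of the partners of the cell-cycle E2s, APC/C substrates and most Fanconi genes had lower values in the Indocin library. The counts of each list below stand against 11.7% of all tested genes at least 1.2-fold lower, 9.9% as much higher and 55.2% below 0. All 9 listed APC/C substrates had ratios below 0, with 8 at least 1.2-fold lower and a median of -0.37. CCNA2, or cyclin A2, stood at 12.4 FPKM in the Indocin library and 19.02 FPKM in the DMSO library (-0.57), and the kinase AURKB at 30.4 and 45.3 FPKM in the same order (-0.56). The smallest differences of this list were those of the spindle factor TPX2 (-0.31) and of securin, PTTG1 (-0.25). Among 17 subunits and regulators of the APC/C 14 ratios were below 0 and the median was -0.09, with 2 at least 1.2-fold lower, both regulators, and 1 as much higher. Those lower were the APC/C inhibitor FBXO5 (7.11 FPKM in the Indocin library and 10.9 FPKM in the DMSO library, -0.55) and the activator CDC20 (102 and 143 FPKM, -0.48), and the subunit ANAPC16 was higher (18.4 and 14.8 FPKM, 0.29), followed by CDC16 (0.19).

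Fanconi genes, which include the ligase and substrates of UBE2T, had 13 of 14 ratios below 0 and a median of -0.24, with 6 at least 1.2-fold lower. The lowest were FANCM, a DNA translocase, at 1.55 FPKM in the Indocin library and 2.27 FPKM in the DMSO library (-0.36), and C19orf40, also known as FAAP24 (-0.35). FANCF (-0.07) and WDR48 (0.10), an activator of the deubiquitinase USP1, had the highest ratios. Among 10 SCF genes the median was -0.08, with CCNF, or cyclin F, at -0.58 and SKP2 at -0.27, and with FBXW11 at 0.06 and BTRC at 0.07. Beside these lists, all 14 proliferation genes had ratios below 0, with 11 at least 1.2-fold lower and a median of -0.42, and their FPKM summed to 676 in the Indocin library and 1026 in the DMSO library. The lists are not separate: CCNB1 is also a listed APC/C substrate, and PCNA is also in the list of UBE2A and UBE2B partners below. Whether the lower cell-cycle E2 values follow from the lower proliferation genes was not tested.

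**Figure D3:**
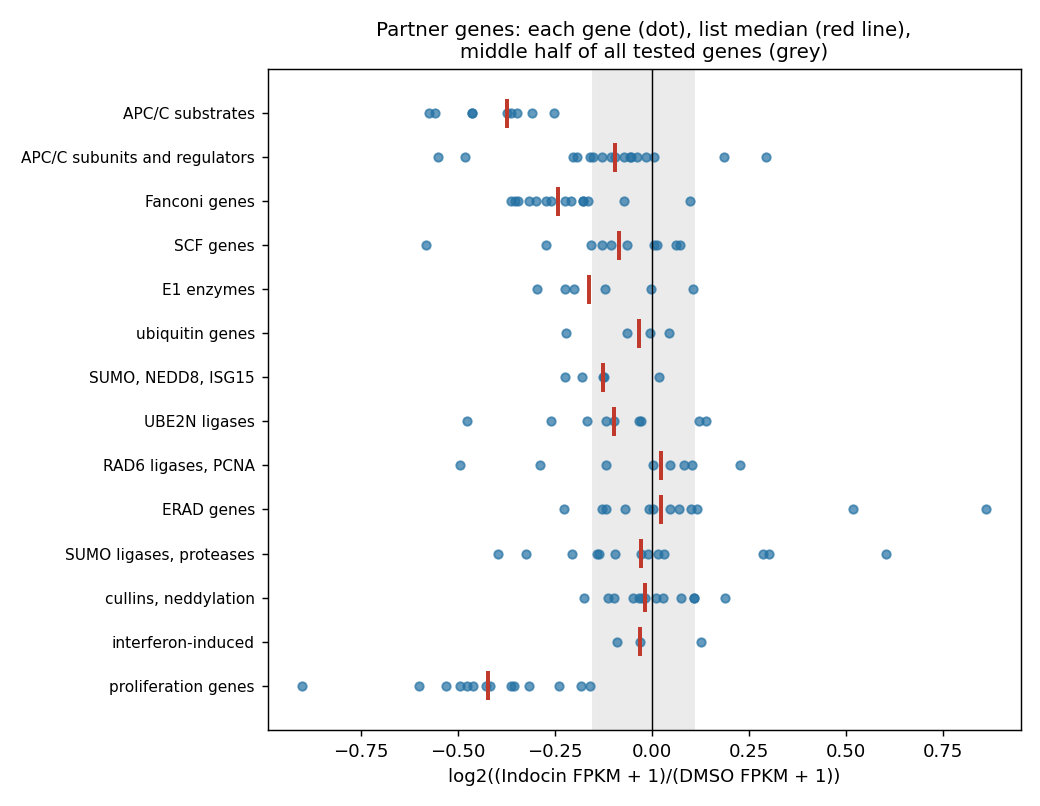
Log2 ratio of FPKM + 1, Indocin over DMSO, for each measured gene of 13 partner lists and of the proliferation list (dots), with the list median as a red line and the quartile range of all tested genes in grey. The medians of APC/C substrates (-0.37), Fanconi genes (-0.24) and proliferation genes (-0.42) lie left of the grey band, and that of the E1 enzymes (-0.16) just left of its edge.

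Among the E2s of Lys63-linked chains, UBE2N was the lower member. UBE2N, the catalytic subunit, stood at 78.8 FPKM in the Indocin library and 96.5 FPKM in the DMSO library (-0.29), and only UBE2T and UBE2C had lower ratios in the family. Its partners UBE2V1 and UBE2V2, E2 variants without an active-site cysteine, stood at 94.1 and 45.4 FPKM in the Indocin library and at 103 and 46.8 FPKM in the DMSO library (-0.13 and -0.04). UBE2N per UBE2V1 and UBE2V2 was thus 0.565 in the Indocin library and 0.644 in the DMSO library. Of 9 measured genes of the UBE2N list, made of ligases and the UBE2N inhibitor OTUB1, 1 (TRAF2) was at least 1.2-fold lower and none higher by that fold, with a median of -0.10. TRAF2, an adaptor of TNF receptors, had a ratio of -0.48 and RNF168, a histone ligase of the DNA damage response, of -0.26, while SHPRH was at 0.12 and TRAF6 at 0.14.

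UBE2A and UBE2B, human counterparts of yeast Rad6, differed little or were higher. UBE2A stood at 53.8 FPKM in the Indocin library and 53.5 FPKM in the DMSO library (0.01), and UBE2B at 18.7 FPKM in the Indocin library and 16.7 FPKM in the DMSO library (0.16). UBE2B therefore made up 25.8% of their sum in the Indocin library and 23.7% in the DMSO library. Their ligase RAD18 (-0.29) and its substrate PCNA, the sliding clamp of DNA replication (-0.49), were at least 1.2-fold lower. None of the 8 genes of that list was as much higher, HUWE1 (0.23) and UBR1 (0.10) having the highest ratios and 0.02 being the median.

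E2s of ER-associated degradation (ERAD), the route by which misfolded proteins of the endoplasmic reticulum reach the proteasome, were level or lower. UBE2G2, a soluble enzyme of this route, was at 30.4 FPKM in the Indocin library and 35.3 FPKM in the DMSO library (-0.21). UBE2J2 was at 43.2 FPKM in the Indocin library and 47.7 FPKM in the DMSO library (-0.14), and its relative UBE2J1, both of them anchored in the ER membrane, at 12.1 and 12.0 FPKM (0.01). Other ERAD genes ran the opposite way at the upper end. HERPUD1 stood at 145 FPKM in the Indocin library and 79.3 FPKM in the DMSO library (0.86), and SEL1L, the adaptor of the ligase SYVN1, at 22.1 and 15.1 FPKM (0.52). These were the 2 of 12 listed genes past 1.2-fold, both higher, against 9.9% of tested genes. AUP1 (-0.23) and UFD1L (-0.13) were lowest, and the list median was 0.02.

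The E2s of NEDD8 and ISG15 were all within 1.2-fold, and the sign of UBE2F and UBE2L6 turned with the scaling of the libraries. UBE2M, which passes NEDD8 to most cullins, was at 92.1 FPKM in the Indocin library and 103 FPKM in the DMSO library (-0.16), and UBE2F, the NEDD8 enzyme of CUL5, at 19.9 and 20.1 FPKM (-0.01, and up to 0.0638 under other settings). UBE2L6, the ISG15 enzyme, was at 12.8 FPKM in the Indocin library and 13.4 FPKM in the DMSO library (-0.06, and up to 0.0178). The list of modifiers, which holds SUMO genes beside NEDD8 and ISG15, had 4 of 5 ratios below 0, against 55.2% of tested genes. It ran from -0.22 for SUMO2 to 0.02, with a median of -0.13. ISG15 was at -0.18, lower than its enzyme UBE2L6, and SUMO3 was at -0.12.

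Ligases and proteases of SUMO had ratios on both sides of 0. The SUMO ligase PIAS1 had a ratio of -0.40 and the SUMO substrate RANGAP1 of -0.33, while the protease SENP7 stood at 5.53 FPKM in the Indocin library and 4.29 FPKM in the DMSO library (0.30). Of 13 genes 2 were at least 1.2-fold lower, against 11.7% of tested genes, and 3 as much higher, against 9.9%, with a median of -0.03. None of 13 cullin and neddylation genes was 1.2-fold apart, from CAND1 (-0.18) and COPS5 (-0.11) to RNF7 (0.11) and DCUN1D2 (0.19), with a median of -0.02. Of 8 interferon-induced genes 3 were measured, among them USP18 (-0.03) and IFI6 (0.13), with a median of -0.03.

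The UBE2D enzymes, which work with a wide range of ligases, had ratios close to 0. UBE2D2 stood at 50.1 FPKM in the Indocin library and 52.2 FPKM in the DMSO library (-0.06), UBE2D3 at 39.2 FPKM in both (0.00) and UBE2D1 at 10.6 and 10.7 FPKM (-0.01). UBE2D4, the least abundant measured member of the family, was at 5.92 FPKM in the Indocin library and 5.30 FPKM in the DMSO library (0.14). Together they summed to 106 FPKM in the Indocin library and 107 FPKM in the DMSO library, of which UBE2D2 made up 47.3% and 48.6%.

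The UBE2E enzymes, close relatives of UBE2D with extended N termini, held the highest ratio. UBE2E2 stood at 39.6 FPKM in the Indocin library and 32.7 FPKM in the DMSO library (0.27), and 90.3% of tested genes had a lower ratio. UBE2E1 was at 99.5 FPKM in the Indocin library and 97.6 FPKM in the DMSO library (0.03). UBE2E1 had level rank 2 of the family in the Indocin library and rank 6 in the DMSO library. UBE2E3 was at 6.66 FPKM in both libraries (0.00).

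UBE2H and UBE2Q2 followed UBE2E2 at the upper end, just short of 1.2-fold on the scale with 1 FPKM added. UBE2H, the E2 of the CTLH ligase complex, stood at 39.96 FPKM in the Indocin library and 33.2 FPKM in the DMSO library (0.26). UBE2Q2 stood at 13.3 FPKM in the Indocin library and 10.99 FPKM in the DMSO library (0.26). All 3 genes were past 1.2-fold with a pseudocount of 0.1 FPKM and with both libraries at the same upper quartile. With 5 FPKM none was, at 0.24 for UBE2E2, 0.24 for UBE2H and 0.20 for UBE2Q2.

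The 9 measured E2s outside the role groups had ratios on both sides of 0. Of these 7 were below 0, UBE2T among them, against 55.2% of tested genes, and 2 above, UBE2H and UBE2Q2, described before. UBE2W, which can attach ubiquitin to the N terminus of a protein, stood at 11.5 FPKM in the Indocin library and 14.1 FPKM in the DMSO library (-0.27), and UBE2L3, which serves HECT and RBR ligases, at 66.3 and 77.0 FPKM (-0.21). UBE2O, a large enzyme with both E2 and E3 activity, was at 23.3 FPKM in the Indocin library and 25.2 FPKM in the DMSO library (-0.11). UBE2Z, which is charged by UBA6, was at 61.1 and 64.5 FPKM in that order (-0.08), UBE2Q1 at 35.1 and 36.9 FPKM (-0.07), and UBE2K, which builds Lys48-linked chains, at 34.6 and 35.7 FPKM (-0.05). UBE2U and UBE2QL1 were listed at 0 in both libraries with a status of OK, though a value of 0 does not by itself show that the message was absent.

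Upstream of the family, the E1 enzymes had 5 of 6 measured ratios below 0, against 55.2% of tested genes, and a median of -0.16. Only UBA2 was at least 1.2-fold lower, against 11.7% of tested genes, and the ratio of UBA6 turned above 0 in 4 settings. UBA1, the main ubiquitin E1, stood at 192 FPKM in the Indocin library and 209 FPKM in the DMSO library (-0.12), and UBA6, the second ubiquitin E1, at 12.2 FPKM in both (0.00). The SUMO E1 subunits UBA2 (-0.30) and SAE1 (-0.22) were the lowest, and UBA3, a subunit of the NEDD8 E1, the highest (0.11). E2 family FPKM per FPKM of UBA1 and UBA6 was 7.87 in the Indocin library and 7.99 in the DMSO library. That family sum also holds the E2s of ubiquitin-like proteins and the variants UBE2V1 and UBE2V2. Of the 4 ubiquitin genes UBB was lowest, at 691 FPKM in the Indocin library and 805 FPKM in the DMSO library (-0.22), and RPS27A highest, at 0.05.

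Ratios within the family were lower at higher levels. Across the 33 measured members Spearman's rho between mean FPKM and the log2 ratio was -0.53, and across the 29 members outside the cell-cycle list it was -0.40. It was -0.24 across the 11966 tested genes. These points share the 2 libraries and each mean is made from the same values as its ratio. Above the median member, at 39.2 FPKM, 14 of 16 ratios were below 0 (87.5%), against 71.3% of 2452 tested genes above that level. At or below it 9 of 17 were below 0 (52.9%), against 51.1% of 9514 genes. When each ratio was set against the median of tested genes in its decile of mean FPKM, an alternative chosen after seeing the data, the family median was 0.00, that of the cell-cycle E2s -0.21 and that of the other members 0.01. The length of the longest annotated transcript went with the ratio by a rho of 0.04 over the members and 0.08 over 11223 tested genes with a length. Over the 29 members outside the cell-cycle list that rho was -0.22.

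**Figure D4:**
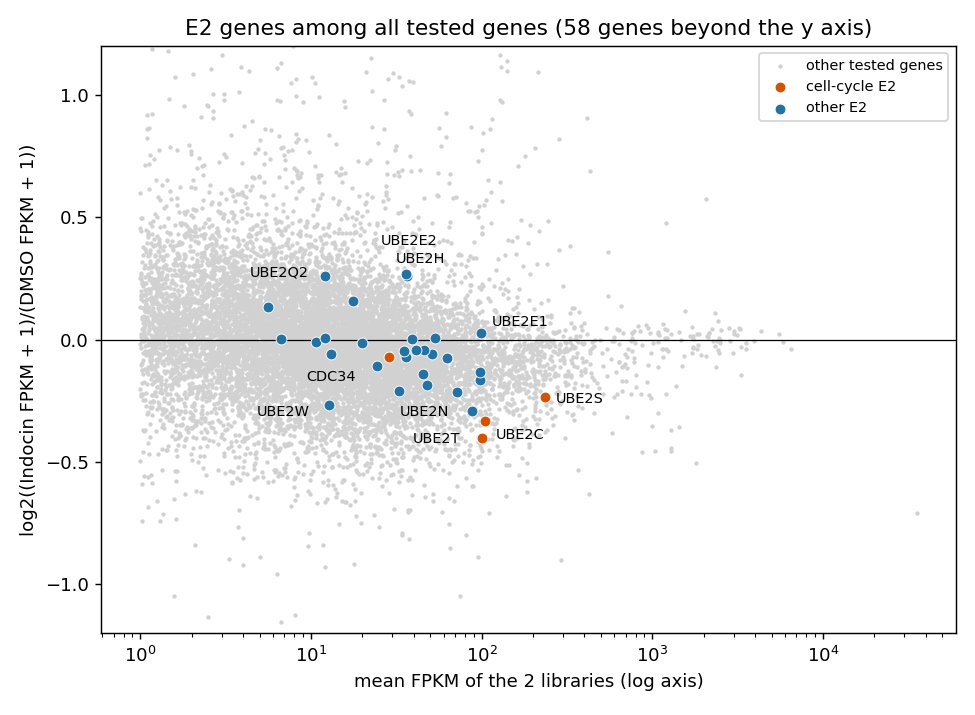
Log2 ratio of FPKM + 1, Indocin over DMSO, against mean FPKM on a log axis for all tested genes (grey) and 32 of the 33 measured E2 genes (coloured), with 58 genes beyond the y axis. UBE2T, UBE2C and UBE2S lie at the right and below 0, at -0.40, -0.33 and -0.24, and UBE2E2 and UBE2H almost coincide at 0.27 and 0.26.

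Read-through and copied genes can share fragments with members. The read-through of TMEM189 with UBE2V1 was listed at 0.261 FPKM in the Indocin library and 0.368 FPKM in the DMSO library, small beside UBE2V1, and that of UBE2F with SCLY at 0.105 and 1.13e-05 FPKM. UBE2Q2P1, a pseudogene of UBE2Q2, was at 0.652 FPKM in the Indocin library and 0.742 FPKM in the DMSO library, and UBE2NL, a copy of UBE2N, at 0.0341 and 0 FPKM. UBE2Q2P2 was at 0.0409 FPKM in the Indocin library and 0 in the DMSO library, and UBE2DNL, UBE2E4P, UBE2MP1 and UBE2Q2L were at 0 in both. How fragments that match several of these genes were assigned is not given in the sources used here, so values of close relatives such as the UBE2D genes are uncertain to that extent.

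**Figure D5:**
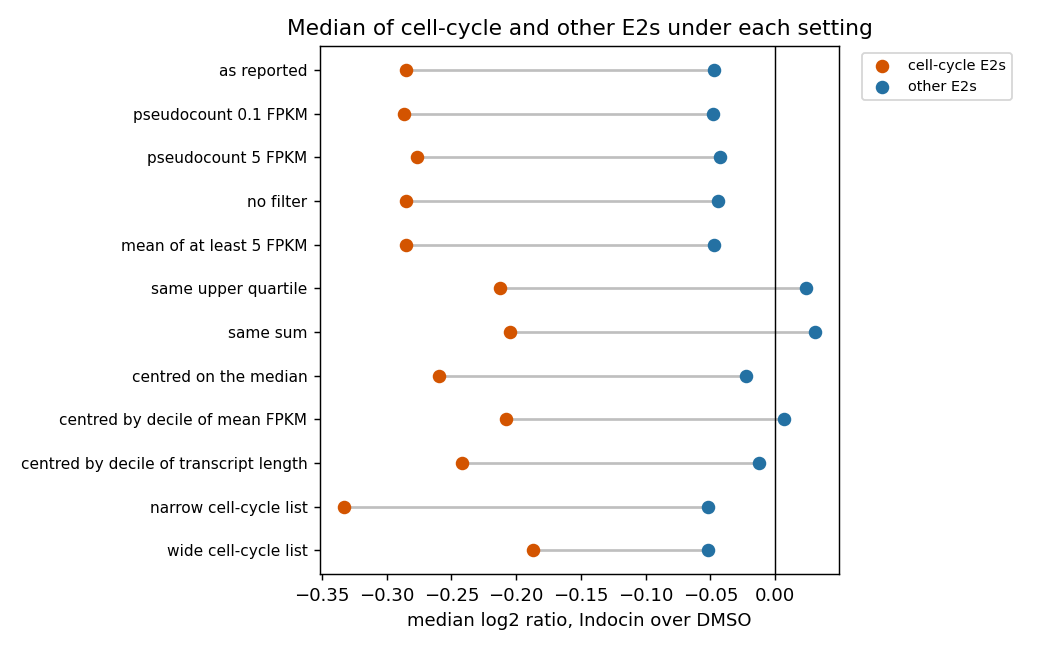
Median log2 ratio, Indocin over DMSO, of the cell-cycle E2s (orange) and of the other measured E2s (blue) as reported and under 11 other settings. The cell-cycle median is below 0 in each, from -0.33 to -0.19, and the median of the other E2s crosses 0 under 3 of them.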

How the data were processed

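The deposited values were FPKM per gene symbol, 1 table per library, each line with a status of OK, per the file headers. The libraries were strand-specific mRNA libraries (KAPA kit) of TRIzol-extracted RNA, per the labels' protocols. Tools named in the submitters' processing notes were TopHat, StringTie, Cufflinks, Cuffnorm and bcl2fastq, with hg19 (GRCh37) as the build. Their roles and versions, the annotation and the use of strand were not given in the sources used here.

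The log2 ratio was computed with a pseudocount of 1 FPKM for genes whose 2 values averaged 1 FPKM or more, leaving out 2041 symbols of short RNA genes, in Python 3.11.15 (numpy 2.4.6, pandas 2.3.3, scipy 1.17.1), and the calculation was tested on simulated data. The added FPKM understates folds of low genes. FPKM are not counts and each group had 1 library, so no test was run: lists are given by counts and medians beside all tested genes. Members and lists, written from general knowledge, were chosen with earlier results of these data known. Named were every member and, of each partner list, the 2 highest and 2 lowest ratios. UBA1, UBA6 and ubiquitin genes were named whatever their value. BCYRN1 was named for its level, and CCNB1 because lists share it. Some genes, 1 member among them, are not reported here by name but stay in counts and medians. Values within groups of related proteins and E2-like genes were added. Transcript lengths came from GENCODE 29 on GRCh38 by symbol, for 93.8% of tested genes, and promoters from RefSeq.

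As alternatives, the pseudocount was set to 0.1 or 5 FPKM, and the filter was dropped or raised to 5 FPKM. Indocin values were also scaled to the DMSO upper quartile or sum, without the short RNA symbols counted above. BCYRN1 was not among those symbols and stayed in the sum. Ratios were also centred on their median, and a narrower (without CDC34) or wider cell-cycle list was tried. Centring by decile of mean FPKM or of transcript length was added after seeing the data.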

Additional observations from a re-analysis of the deposited data

How the results depend on the processing

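The median of the cell-cycle E2s was below 0 under all 11 alternatives, while the median of the whole family was not. The scaling, centring and filter settings moved the cell-cycle median far less than its distance from 0, so they could hardly turn it. Rescaling and median centring shift both medians nearly alike, and the 5 FPKM filter removed no member, so none of these tests the gap between cell-cycle and other E2s, -0.24 as reported. It stayed at -0.24 or -0.23 with the other pseudocounts, without a filter and by decile of transcript length, and was -0.21 when centred by decile of mean FPKM, -0.28 with the narrow list and -0.13 with the wide list, whose cell-cycle medians were -0.33 and -0.19. With the same upper quartile the medians were -0.21 for cell-cycle E2s, 0.0236 for other E2s and 0.0106 for the family, 15 members were below 0, 1 was at least 1.2-fold lower and 3 higher, and the log2 ratio of the summed family was -0.0628 against -0.14 as reported; of tested genes 41.2% were below 0, 7.01% lower and 14.9% higher. With the same sum these values were -0.20, 0.0311, 0.0178, 13, 1, 3 and -0.0551, with 39.6%, 6.70% and 15.5% of tested genes. BCYRN1 weighs heavily in the sum used for this scaling. Centred on the median of tested genes, the medians were -0.26, -0.0221 and -0.0326, and 3 members were at least 1.2-fold higher, against 11.7% of tested genes. Centred by decile of mean FPKM they were -0.21, 0.0067 and 0.00371, with 15 members below 0, 1 lower and 3 higher (49.97%, 9.82% and 9.89% of tested genes), and by decile of transcript length -0.24, -0.0128 and -0.0301, with 3 higher (11.6% of tested genes). Members at least 1.2-fold higher were 3 with a pseudocount of 0.1 FPKM (12.98% of tested genes) and 0 with 5 FPKM (4.35%), since all 3 lie near that fold. The cause of the other differences was not tested. No member reached 1.5-fold under these 9 settings that bear on single genes; 13 members stayed below 0 and 9 above 0 in all of them, and 11 changed sign, CDC34, UBE2F and UBE2L6 among them. No paired analysis was possible because each group had 1 library, and for the same reason none could be left out. The unknown fragment number limits all values of low genes.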

Other observations

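Proteins with an E2 fold whose symbols fall outside the family rule were also measured. AKTIP, an inactive E2 variant, stood at 23.7 FPKM in the Indocin library and 17.2 FPKM in the DMSO library (log2 ratio 0.44), above every member of the E2 family. TSG101, an inactive variant of the endosomal sorting machinery, was at 51.9 FPKM in the Indocin library and 43.9 FPKM in the DMSO library (0.24), and UEVLD, another variant, at 7.92 and 8.56 FPKM (-0.10). The enzymes of autophagy ATG10 and ATG3, which act on the ubiquitin-like proteins ATG12 and the LC3 family, had ratios of 0.11 and -0.06. UFC1, the E2 of UFM1, had -0.05, and BIRC6, a giant E2 and E3 that inhibits caspases, 0.09. AKTIP alone of these 7 genes was past 1.2-fold, and their median was 0.09.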
